A study of Mus musculus with 4 samples.

Results

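The genes described here encode solute carriers, the membrane proteins that move amino acids, sugars, metals, ions, nucleotides and vitamins across the plasma membrane and the membranes of organelles. They were chosen by their symbols and their level on the array: a gene was kept when its symbol began with Slc and a digit, when a probe set was annotated to it alone, and when its brightest probe set had a mean over the 4 arrays at or above the median of all probe sets that are not controls. Of 347 such genes on the array, 175 were kept, among 10204 genes of all kinds that met the same level rule, and 172 lay below it. The level threshold was a mean intensity of 72.4. The members just inside it were Slc25a47, Slc51a and Slc16a11, at 72.7, 72.8 and 74.4, and the genes just outside it were Slc5a2, Slc24a3 and Slc15a2, at 72.0, 71.8 and 70.2. Because a gene low in one group can pass through a high level in the other, no count over the members stands as evidence by itself. The rule also takes 4 genes that are named after a carrier without being one, Slc9a3r1, Slc4a1ap, Slc7a6os and the pseudogene Slc2a4rg-ps. The carriers belong to 45 families, and each family was placed in 1 of 7 classes by the solutes it is known to move.

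The study compared regulatory T cells of the mouse spleen that did or did not carry neuropilin-1 (Nrp1), a surface receptor for semaphorins that is widely used to mark regulatory T cells made in the thymus. Both groups came from the strain Balb/c Foxp3 GFP, in which a green fluorescent reporter marks cells with the transcription factor Foxp3, and both were sorted as CD4+ Foxp3+; one group was Nrp- and the other Nrp+. Each group had 2 arrays of 1 colour. The mice were aged 4 to 6 weeks, except for the array titled Nrp1-negative replicate 1, whose labels give 4 to 8 weeks and a source name and cell type that read as Nrp+. The array is kept here under its title, and values with its label turned are given where they matter. Its Nrp1 intensity, 339.6, was the lowest of all arrays and far below the Nrp1-positive ones (9113 and 8026), which goes with its title. The labels do not state that replicates were separate mice or separate sorts, so p-values measure only spread between these arrays, which may be technical. That spread is taken mostly from all genes of similar intensity and less from the gene's own arrays.

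Solute carriers set how fast a T cell takes in fuel. Glucose enters through carriers of the Slc2 family, lactate and other monocarboxylates cross through the Slc16 family, and large neutral amino acids enter through Slc7a5 bound to its heavy subunit Slc3a2. The Slc25 family exchanges metabolites across the inner mitochondrial membrane, Slc39 proteins bring zinc into the cytosol and Slc30 proteins remove it, and Slc35 proteins carry nucleotide sugars into the Golgi apparatus and endoplasmic reticulum. Activation of T cells is known to raise the genes for glucose and amino acid carriers.

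Replicate number 1 and replicate number 2 differ in their array processing and are called batch 1 and batch 2 here; each holds 1 Nrp1-negative and 1 Nrp1-positive array. The trimmed mean of the deposited values was 500.003 on both arrays of batch 1 and 150.001 on both of batch 2, and the spiked poly-A control probe sets had median scaled intensities of 3011 and 2558 on the batch 1 arrays, against 11.8 and 6.85 on the batch 2 arrays (Nrp1-negative before Nrp1-positive). Differences are therefore given for each batch, and tests both with and without a batch term (the block). Values with 1 array left out or with the label turned come from fits without the block. Part of the batch difference enters them. Of 9 regulatory T cell markers, 8 passed the level rule. Nrp1 itself had intensities of 339.6 and 1219.8 in the Nrp1-negative and 9113 and 8026 in the Nrp1-positive arrays and differed by 3.69 on the log2 scale (4.67 within batch 1 and 2.70 within batch 2), while Foxp3 lay below the level rule; Nrp1, Ikzf2 and Tnfrsf18 were called higher with the block, and 0 of 4 tested CD8 T and NK cell markers were called. Markers of myeloid cells were high in batch 2: the summed intensity of 8 such genes, all of them above the level rule, was 13316 and 15874 on the batch 1 arrays, against 64863 and 57294 on the batch 2 arrays. That of 5 CD8 T and NK cell genes, 4 of them above the level rule, was 1113 and 1525 in batch 1, against 2882 and 2215 in batch 2. That of 6 B cell genes, 1 of them above the level rule, ranged from 395 to 529 over the Nrp1-negative arrays and from 429 to 542 over the Nrp1-positive arrays. In such sorted bulk samples fewer cells of a type and less RNA per cell cannot be told apart.

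Intensities below are normalised probe set signals. A difference is the Nrp1-positive value less the Nrp1-negative value in log2(intensity + 18.3), and folds are on the same scale. The added constant makes a difference smaller than the ratio of dim intensities. Intensities of different genes come from different probes and are not set against each other.

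Most solute carrier genes differed little between Nrp1-positive and Nrp1-negative regulatory T cells. The median difference of the 175 genes was −0.010, beside −0.0020 over all 10204 genes tested, and 160 of the 175 differed by less than 0.5 in either direction. In limma's test with the block, 2 of the 175 were higher and 1 was lower at an adjusted p below 0.05, where 0.970% of all genes tested were called higher and 0.568% lower. The higher genes were Slc22a5, the carnitine transporter, and Slc36a4, an amino acid transporter of the proton-coupled family, and the lower gene was Slc16a5, a member of the monocarboxylate transporter family. Limma without the block, the main test, called 0 of the 175 and 0% of all genes, with 3 of the 175 at an unadjusted p below 0.05. With the block, 16 of the 175 had such a p. These shares are near those over all genes, where 140 genes had an unadjusted p below 0.05 without the block and 970 had one with it. With the block but no mean-variance trend in the prior, 0 of the 175 passed and the lowest adjusted p among them was 0.327. With the arrays scaled to one trimmed mean and no quantile step, 0 of the 175 passed with the block either (lowest adjusted p = 0.0674). Fits that left out any 1 of the 4 arrays had no block and left 1 array in a group. They cannot check the calls made with the block.

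**Figure D1:**
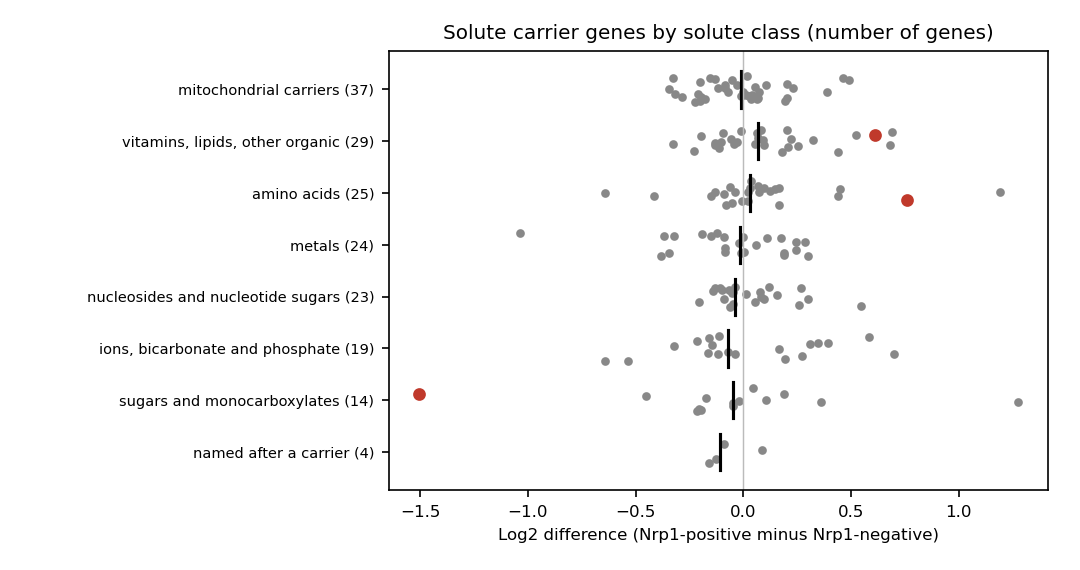
Log2 difference (Nrp1-positive minus Nrp1-negative, mean of both batches) of each of the 175 genes, in rows by solute class with the number of genes; black bars are class medians and red points are the 3 genes with an adjusted p below 0.05 in limma's test with the block. Class medians lie between −0.11 and 0.069, and Slc16a5 at −1.51 and Slc2a8 at 1.27 are the outermost points.

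Both genes called higher are shown by the sequence before their start, beside Slc35d1, which passed under 3 of 8 settings with the block. The table of promoters held 132 of the 175 genes, and Slc16a5 was not among them. The sequences are from RefSeq (GRCm38.p6) and give the 250 bases before the gene's start, 5′ to 3′ on the gene's strand. Capitals mark any of 6 short motifs searched on both strands: the GC box GGGCGG, the ETS motif CCGGAAG, the forkhead motif TGTTTAC, the E-box CACGTG, the cyclic AMP response element TGACGTCA and the TATA box TATAAA. The window of Slc22a5 is chr11:53891704-53891953 on the minus strand, and that of Slc36a4 is chr9:15709488-15709737 on the plus strand. That of Slc35d1 is chr4:103215177-103215426 on the minus strand.
Slc22a5: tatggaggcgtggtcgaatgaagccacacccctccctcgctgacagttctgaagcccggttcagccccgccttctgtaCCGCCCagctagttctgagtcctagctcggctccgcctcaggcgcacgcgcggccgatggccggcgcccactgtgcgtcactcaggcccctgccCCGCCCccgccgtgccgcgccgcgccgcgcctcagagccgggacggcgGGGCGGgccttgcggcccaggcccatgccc
Slc36a4: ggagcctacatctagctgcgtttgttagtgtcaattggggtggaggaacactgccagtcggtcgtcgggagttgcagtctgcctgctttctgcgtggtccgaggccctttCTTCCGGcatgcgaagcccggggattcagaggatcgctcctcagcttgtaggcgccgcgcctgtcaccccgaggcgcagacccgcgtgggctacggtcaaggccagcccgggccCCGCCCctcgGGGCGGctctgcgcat
Slc35d1: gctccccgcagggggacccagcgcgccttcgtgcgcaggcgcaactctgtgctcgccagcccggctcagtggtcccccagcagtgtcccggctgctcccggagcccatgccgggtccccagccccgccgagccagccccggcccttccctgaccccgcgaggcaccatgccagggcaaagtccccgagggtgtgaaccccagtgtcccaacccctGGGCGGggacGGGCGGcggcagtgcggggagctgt

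All 3 windows were rich in G and C, at 73.6%, 66.0% and 75.2% in the same order. The GC box was matched in each of them, 3 times for Slc22a5 and 2 times each for Slc36a4 and Slc35d1, and no match overlapped another motif. Slc36a4 also held 1 ETS match. The GC box stood in 32.7% of the 32851 windows of this length in the table and the ETS motif in 6.91%. Among the 132 solute carrier genes in the table, 71.2% held the GC box and 15.2% the ETS motif in any of their windows. These shares count genes and those over the table count windows, so they are not set against each other. The forkhead motif, the letters bound by factors of the Foxp3 kind, was in 3.17% of windows, the E-box in 6.02%, the cyclic AMP response element in 1.55% and the TATA box in 12.4%, and none of these stood in the 3 windows shown. A match is a description of letters and not a binding site.

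Slc16a5 was the member with the lowest difference, and its arrays separated cleanly. Its intensity was 275 and 238 in the Nrp1-negative and 79.0 and 77.2 in the Nrp1-positive arrays. The Nrp1-positive values lay near the level threshold of 72.4. The arrays of each group lay close together, at 256 ± 26.1 (SD, n = 2) in Nrp1-negative and 78.1 ± 1.26 in Nrp1-positive cells, and the groups did not overlap. The difference was −1.51, or 2.84-fold lower in Nrp1-positive cells, with −1.59 within batch 1 and −1.42 within batch 2 (standard error 0.31, adjusted p = 0.0165, limma with the block). Over 7 settings with the block its adjusted p in limma ranged from 2.68e-04 to 0.327, and it passed in 5 of them. With the level filter at percentile 65 it was not tested. With the array of conflicting labels counted as Nrp1-positive the difference was −0.88. A dimmer probe set for Slc16a5, below the level rule with intensities of 3.18 to 16.5, differed by 0.34.

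Slc22a5 encodes the sodium-dependent transporter that brings carnitine into cells, where it carries long-chain fatty acids into mitochondria for oxidation. Its intensity was 2217 and 1333 in the Nrp1-negative and 2963 and 2354 in the Nrp1-positive arrays. Both Nrp1-positive arrays lay above both Nrp1-negative ones, and in both groups the array of batch 1 was the higher one. The difference was 0.61 (1.53-fold), being 0.42 within batch 1 and 0.81 within batch 2 (standard error 0.13, adjusted p = 0.0183, limma with the block, called in 6 of 8 settings with the block, with adjusted p from 3.86e-04 to 0.501). A second probe set above the level rule gave 119 and 150 in the Nrp1-negative and 354 and 205 in the Nrp1-positive arrays, a difference of 0.93 in the same direction. Leaving out the array Nrp1-negative replicate 2 gave a difference of 0.25, and leaving out its counterpart of batch 1 gave 0.98. Slc25a20, the mitochondrial carrier that takes carnitine esters through the inner membrane, had intensities of 2535 and 2049.7 against 2499.98 and 2121, Nrp1-negative first, and a difference of 0.015 (95% interval −0.23 to 0.26 with the block).

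Slc36a4 belongs to the proton-coupled amino acid transporter family. Its intensity was 344 and 786 in the Nrp1-negative and 789 and 1019 in the Nrp1-positive arrays. The lower Nrp1-positive array and the higher Nrp1-negative array differed by a few units only, so the groups were separate but adjoining. The difference was 0.76, with 1.15 within batch 1 and 0.37 within batch 2 (standard error 0.18, adjusted p = 0.0416, limma with the block, called in 5 of 8 settings with the block, with adjusted p from 7.56e-04 to 0.561). The array titled Nrp1-negative replicate 1 was the lowest of the 4, and the value within batch 2 does not use it. Dropping that array gave a difference of 0.19, and dropping its counterpart of batch 2 gave 1.34. Counting the batch 1 array as Nrp1-positive gave −0.26. Those fits had no block, and Slc36a4 was 0.75 higher in batch 2 than in batch 1. Part of this batch shift enters their values, so they cannot show how far the call rested on that array. Slc36a1, the other kept member of this family, differed by 0.029 (95% interval −0.38 to 0.44).

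**Figure D2:**
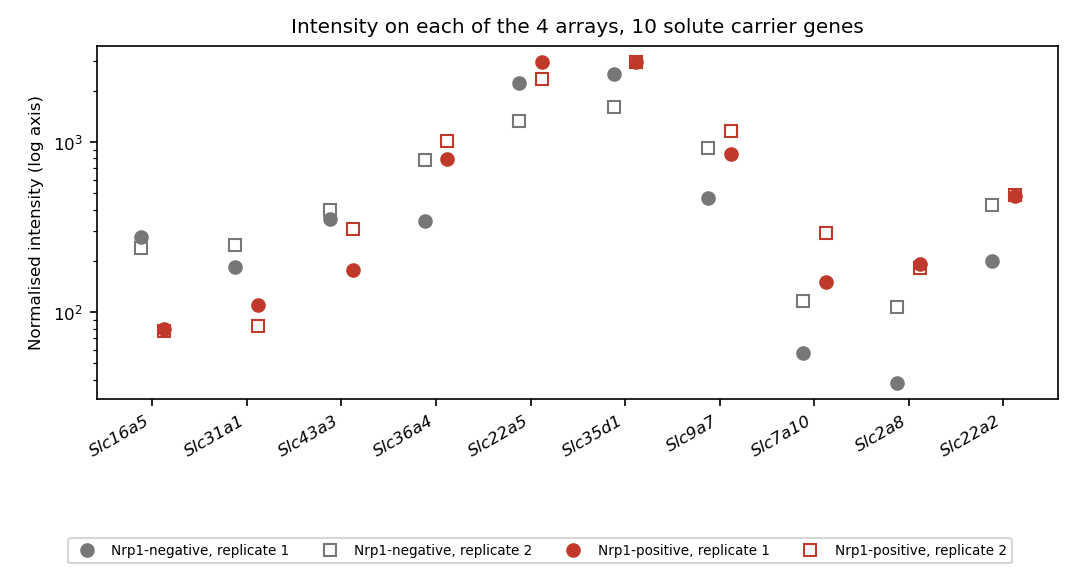
Normalised intensity (log axis) of 10 solute carrier genes on each of the 4 arrays; grey marks are Nrp1-negative and red marks Nrp1-positive arrays, with filled circles for replicate 1 and open squares for replicate 2. For Slc16a5 both grey marks (275 and 238) lie well above both red marks (79.0 and 77.2), while for Slc36a4 and Slc9a7 the grey circle lies far below the grey square.

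Among 14 carriers of sugars and monocarboxylates, 0 were higher and 1, Slc16a5, was lower with the block, and the class median was −0.050 (−0.050 within batch 1 and −0.061 within batch 2). Slc2a1, the glucose transporter that rises when T cells are activated, had intensities of 2987 and 2044 in the Nrp1-negative and 2888 and 1973 in the Nrp1-positive arrays, so that its arrays stood apart by batch more than by group. Its difference was −0.049, with a 95% interval of −0.29 to 0.19 in the fit with the block. Slc2a3, the high-affinity glucose transporter, had intensities of 10039.8 and 10094 in the Nrp1-negative and 10386 and 11266 in the Nrp1-positive arrays and a difference of 0.10 (95% interval −0.078 to 0.29).

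Slc2a8, a hexose transporter of intracellular membranes, had the highest difference of the 175 genes without passing the test. Its intensity was 38.3 and 107 in the Nrp1-negative and 191 and 180.5 in the Nrp1-positive arrays. The array titled Nrp1-negative replicate 1 was far below the other 3. The difference was 1.27, at 1.89 within batch 1 and 0.66 within batch 2 (standard error 0.38, adjusted p = 0.147, limma with the block), and it was 0.083 with that array counted as Nrp1-positive. Slc16a1, the main lactate and pyruvate transporter of lymphocytes, had intensities of 1142 and 1695 in the Nrp1-negative and 1229 and 1166 in the Nrp1-positive arrays and differences of 0.10 within batch 1 and −0.53 within batch 2. Slc16a6, of the same family, differed by −0.20 (95% interval −0.55 to 0.16), and Slc16a3, the lactate exporter of glycolytic cells, lay below the level rule. Slc5a6, which carries biotin and pantothenate although its family is placed with the sugars, had intensities of 109 and 124 against 90.3 and 71.5, Nrp1-negative first, and differed by −0.45 (adjusted p = 0.811, limma with the block).

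Of 18 tested genes of glucose use outside the Slc families, Eno3, an enolase gene, was higher with the block, 0 were lower and 17 did not pass. The intensity of Eno3 was 1001 and 1197 in the Nrp1-negative and 1843 and 1877 in the Nrp1-positive arrays. The groups did not overlap, and the difference was 0.76, at 0.87 within batch 1 and 0.64 within batch 2 (standard error 0.13, adjusted p = 0.00532, limma with the block). The list median was −0.077, beside −0.0020 over all genes. Among 6 tested genes for proteins that chaperone, couple or assist carriers, such as Bsg, the partner of the lactate transporters, 0 were called in either direction and the median was 0.077.

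Among 25 carriers of amino acids, Slc36a4 was higher with the block, 0 were lower and 24 did not pass, and the class median was 0.029 (0.086 within batch 1 and −0.017 within batch 2). Slc7a5, the light chain for large neutral amino acids, had intensities of 661 and 700.1 in the Nrp1-negative and 695 and 611 in the Nrp1-positive arrays, and Slc3a2, its heavy chain, of 1847 and 1645 in the Nrp1-negative and 1868 and 1677 in the Nrp1-positive arrays. Their differences were −0.061 (95% interval −0.39 to 0.27) and 0.022 (95% interval −0.24 to 0.28). The groups overlapped for both genes.

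Slc1a5, a carrier of glutamine and other neutral amino acids, had intensities of 1032 and 1131 on the batch 1 arrays and 1809 and 1732 on the batch 2 arrays, Nrp1-negative first, and so differed by batch more than by group (0.034, 95% interval −0.24 to 0.31). The sodium-coupled neutral amino acid carriers Slc38a1 and Slc38a2 differed by 0.075 and −0.081, and Slc43a2, an exporter of large neutral amino acids, by −0.0040. Slc7a6, which exchanges cationic for neutral amino acids, had intensities of 652 and 778 in the Nrp1-negative and 1038 and 912 in the Nrp1-positive arrays, with no overlap of the groups. Its difference was 0.44 (adjusted p = 0.251, limma with the block), and a second probe set above the level rule differed by 0.071. Slc1a4 and Slc7a11, the cystine transporter, lay below the level rule.

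Slc7a10, a carrier of small neutral amino acids best known from brain and fat, had nearly the same difference in both batches, 1.17 within batch 1 and 1.22 within batch 2. Its intensity was 57.1 and 116 in the Nrp1-negative and 151 and 293 in the Nrp1-positive arrays. The groups did not overlap, and within each group the arrays of batch 2 were higher. The mean difference was 1.19 (standard error 0.32, adjusted p = 0.0866, limma with the block), which did not pass; it was called in 1 of 7 settings with the block. It was 0.24 with the array of conflicting labels counted as Nrp1-positive, and 0.75 to 1.63 with any 1 array left out. Slc43a3, a nucleobase transporter placed with the amino acids by its family number, had intensities of 354 and 396 in the Nrp1-negative and 175 and 308 in the Nrp1-positive arrays and differed by −0.64 (adjusted p = 0.239). Slc6a9, a glycine transporter, differed by −0.41, at −0.81 within batch 1 and −0.017 within batch 2 (adjusted p = 0.806).

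Amino acids that enter a cell are sensed at the lysosome by Rag GTPases, which recruit the kinase Mtor. Of 24 tested genes of this sensing machinery, Rragd, which encodes a Rag GTPase, was higher with the block, 0 were lower and 23 did not pass. The intensity of Rragd was 594 and 431 in the Nrp1-negative and 863 and 773 in the Nrp1-positive arrays. The groups did not overlap, and the difference was 0.67, at 0.53 within batch 1 and 0.82 within batch 2 (standard error 0.16, adjusted p = 0.0416, limma with the block). Slc38a9, the arginine-sensing carrier of the lysosome, differed by 0.15 (95% interval −0.22 to 0.52). Its other probe sets above the level rule went both ways, from −0.51 to 0.36.

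The 37 mitochondrial carriers of the Slc25 family were the largest class, and 0 passed in either direction. Their median was −0.010, and all 37 differed by less than 0.5 in either direction. Slc25a5 and Slc25a4, which exchange ADP for ATP, had intensities of 11752 and 11371 on the batch 1 arrays and 17505 and 16365 on the batch 2 arrays for Slc25a5 and 3235 and 3169 on the batch 1 arrays and 4724 and 4288 on the batch 2 arrays for Slc25a4, Nrp1-negative first. At their brightest probe sets both were high in batch 2 and nearly level between the groups. Their differences were −0.072 (95% interval −0.24 to 0.10) and −0.084 (95% interval −0.31 to 0.14). Another probe set for Slc25a4 was lower in batch 2, with 4082 and 3556 in batch 1 and 3774 and 3424 in batch 2. A further one was higher in batch 2, with 2824 and 2657 in batch 1 and 4374 and 3909 in batch 2. Slc25a3, the phosphate carrier, differed by 0.019 and Slc25a1, the citrate carrier, by 0.20. The highest difference in this class was that of Slc25a33, a pyrimidine nucleotide carrier, at 0.49 (0.61 within batch 1 and 0.37 within batch 2; adjusted p = 0.345, limma with the block). Its intensity was 265 and 368 in the Nrp1-negative and 414 and 482 in the Nrp1-positive arrays.

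Of 24 carriers of metals, 0 passed in either direction, and the class median was −0.015 (−0.035 within batch 1 and −0.12 within batch 2). Slc31a1, the high-affinity copper importer, had intensities of 184 and 249 in the Nrp1-negative and 109 and 82.5 in the Nrp1-positive arrays, with no overlap. Its difference was −1.04, at −0.66 within batch 1 and −1.41 within batch 2 (standard error 0.32, adjusted p = 0.164, limma with the block). A second probe set above the level rule, at 89.6 and 142 in the Nrp1-negative and 101 and 132 in the Nrp1-positive arrays, differed by 0.028, so the probe sets of Slc31a1 disagreed.

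The Slc39 family of zinc and other metal importers went both ways, and 0 of its 11 kept genes passed. In 4 of them, Slc39a6, Slc39a8, Slc39a10 and Slc39a14, both Nrp1-positive arrays were below both Nrp1-negative ones, in 2, Slc39a1 and Slc39a9, they were above, and in 5 the groups overlapped. Slc39a6 had intensities of 2051 and 1975 in the Nrp1-negative and 1709 and 1464 in the Nrp1-positive arrays and differed by −0.34 (adjusted p = 0.276, limma with the block). A second probe set for Slc39a6 above the level rule differed by −0.22. Slc39a1 had intensities of 1321 and 1229 in the Nrp1-negative and 1731 and 1324 in the Nrp1-positive arrays and differed by 0.25 (adjusted p = 0.613, limma with the block), and Slc39a9 by 0.19. Slc39a8 differed by −0.37 (adjusted p = 0.623) and Slc39a14 by −0.38 (adjusted p = 0.547). Slc39a10, a further zinc importer, differed by −0.12, and Slc30a1, the zinc exporter of the plasma membrane, by 0.17, at −0.064 within batch 1 and 0.41 within batch 2. The groups did not overlap for 33.3% of the metal carriers and for 27.4% of all 175 genes (28 with the Nrp1-positive arrays above and 20 with them below), beside 21.0% of all genes tested. Of 10 tested genes that store, sense or deliver metals, 0 were called in either direction and the median was −0.076.

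Among 19 carriers of ions, bicarbonate and phosphate, 0 passed, and the class median was −0.069. Slc9a7, the sodium-proton exchanger of the trans-Golgi network, came nearest. Its intensity was 469.6 and 915 in the Nrp1-negative and 845 and 1167 in the Nrp1-positive arrays, and the higher Nrp1-negative array exceeded the lower Nrp1-positive one. The difference was 0.58, at 0.82 within batch 1 and 0.34 within batch 2 (standard error 0.16, adjusted p = 0.0862, limma with the block, called in 2 of 8 settings with the block), and −0.23 with the array of conflicting labels counted as Nrp1-positive. Slc9a7 is 1 of 6 members on chromosome X, and the median of these was 0.00062.

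Slc12a2, which imports sodium, potassium and chloride, had intensities of 549 and 636 in the Nrp1-negative and 817 and 749 in the Nrp1-positive arrays and differed by 0.39 (adjusted p = 0.373, limma with the block). The groups did not overlap, and the other probe sets for Slc12a2 above the level rule differed by 0.26 and 0.84. The potassium-chloride exporters Slc12a7 and Slc12a5 differed by −0.11 and −0.64 (adjusted p = 0.645 for Slc12a5). Slc20a1, a phosphate importer, differed by −0.16. Slc4a1, the anion exchanger of red cells, had intensities of 88.5 and 135 against 59.2 and 82.4, Nrp1-negative first, and differed by −0.53 (adjusted p = 0.768). The summed intensity of 5 erythroid marker genes, of which Klf1 alone met the level rule, was 175 and 428 in the Nrp1-negative and 141 and 77.1 in the Nrp1-positive arrays, and their part in the value of Slc4a1 was not tested.

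Of 23 carriers of nucleosides and nucleotide sugars, 0 passed, and the class median was −0.037. Slc35d1, which takes UDP-glucuronic acid and UDP-N-acetylgalactosamine into the endoplasmic reticulum, had intensities of 2497 and 1615 in the Nrp1-negative and 2938 and 2948 in the Nrp1-positive arrays. The array Nrp1-negative replicate 2 was far below the other Nrp1-negative array, and both Nrp1-positive arrays were nearly equal. The difference was 0.55, at 0.23 within batch 1 and 0.86 within batch 2 (standard error 0.14, adjusted p = 0.0617, limma with the block). Leaving out the array Nrp1-negative replicate 2 gave 0.24, and leaving out its counterpart of batch 1 gave 0.86. A second probe set above the level rule, at 1609 and 1164 in the Nrp1-negative and 1858 and 1825 in the Nrp1-positive arrays, differed by 0.42. Slc29a1, an equilibrative nucleoside transporter that also carries adenosine, had intensities of 299 and 340.02 on the batch 1 arrays and 696 and 533 on the batch 2 arrays, Nrp1-negative first, and differed by −0.10 (95% interval −0.50 to 0.30).

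Among 29 carriers of vitamins, lipids, peptides and other organic solutes, Slc22a5 was higher with the block, 0 were lower and 28 did not pass. The class median was 0.069 (0.12 within batch 1 and 0.032 within batch 2). Slc22a2 and Slc22a15, both of the organic cation family to which Slc22a5 belongs, had intensities of 199 and 425 in the Nrp1-negative and 482 and 484 in the Nrp1-positive arrays for Slc22a2 and 303 and 421 in the Nrp1-negative and 603 and 452 in the Nrp1-positive arrays for Slc22a15. Their groups did not overlap, yet for both the array titled Nrp1-negative replicate 1 was the lowest. Slc22a2 differed by 0.69 (adjusted p = 0.198, limma with the block), at 1.20 within batch 1 and 0.18 within batch 2, and was −0.23 with that array counted as Nrp1-positive. Slc22a15 differed by 0.52 (adjusted p = 0.36), at 0.95 within batch 1 and 0.10 within batch 2. Slc19a1, the reduced folate carrier, differed by 0.081 (95% interval −0.22 to 0.38).

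Only a part of the members went the same way in both batches. Of the 175 genes, 50 were higher and 48 lower in both batches, 56.0% together, beside 54.0% of all genes tested. A mean difference of at least 2-fold was found for 4 of the 175, Slc2a8, Slc7a10, Slc16a5 and Slc31a1, beside 1.06% of all genes. The genes with the widest gap between batches were Slc35e4, Slc9b2, Slc11a2, Slc38a3 and Slc4a11. Slc35e4, of the nucleotide sugar family, was −0.74 within batch 1 and 1.05 within batch 2, and Slc11a2, the importer of divalent iron, was 0.88 within batch 1 and −0.66 within batch 2. Slc9b2, a sodium-proton exchanger, was 1.47 within batch 1 and −0.072 within batch 2, Slc38a3, a glutamine carrier, was 0.81 within batch 1 and −0.48 within batch 2, and Slc4a11, a transporter of the bicarbonate family, was 0.97 within batch 1 and −0.28 within batch 2. For Slc11a2 the other 3 probe sets above the level rule differed by −0.35, −0.99 and −0.61, against 0.11 at the brightest. Over all members, 76 had at least 1 further probe set above the level rule, 120 in all, and 74 of these had the sign of the brightest one. Of the 17 whose brightest probe set differed by at least 0.25 in either direction, 13 had its sign. The same count over all genes was not made.

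**Figure D3:**
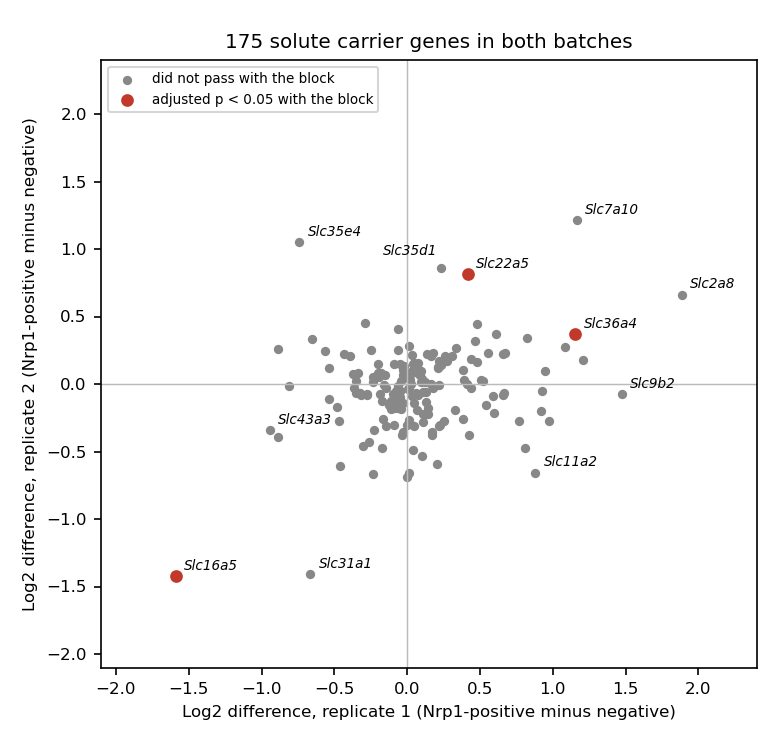
Log2 difference in batch 1 (replicate 1, x axis) against batch 2 (replicate 2, y axis) of the 175 genes, each difference from 1 Nrp1-positive and 1 Nrp1-negative array; red points had an adjusted p below 0.05 in limma's test with the block. Slc16a5 (−1.59 and −1.42) and Slc7a10 (1.17 and 1.22) lie near the diagonal, and Slc35e4, Slc9b2 and Slc11a2 lie in quadrants of opposite sign.

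The batch separated the arrays more than Nrp1 did for most members. The difference between batches, replicate 2 minus replicate 1, was larger in size than that between groups in 116 of the 175 genes (66.3%), beside 71.8% of all genes. A batch difference of at least 2-fold was found in 6 members (3.43%), beside 712 of all genes (6.98%). Of the 712 genes, 473 were higher in batch 2, as were 5 of the 6 members. These were Slc25a13 (1.64), Slc22a17 (1.61), Slc40a1 (1.59), Slc11a1 (1.38) and Slc15a3 (1.06), and the member lower in batch 2 was Slc35e3 (−1.10).

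Some of these are genes of macrophages and other myeloid cells. Slc11a1, the metal transporter of the phagosome of macrophages, had intensities of 61.5 and 102 on the batch 1 arrays and 257 and 219 on the batch 2 arrays, Nrp1-negative first. Slc40a1, the iron exporter ferroportin, had 116 and 210.1 on the batch 1 arrays and 561 and 459.6 on the batch 2 arrays, and Slc15a3, a peptide and histidine carrier of endolysosomes, had 48.0 and 123 on the batch 1 arrays and 165 and 204 on the batch 2 arrays. For all 3 genes, both arrays of batch 2 were above both arrays of batch 1. All 8 myeloid markers were at least 2-fold higher in batch 2, from 1.49 for Itgam to 2.73 for Lyz2, and Slc11a1, Slc40a1 and Slc15a3 moved with them. The part of those markers in the values of the carriers was not tested. Between groups, Slc11a1 was 0.60 within batch 1 and −0.22 within batch 2, Slc40a1 0.77 within batch 1 and −0.28 within batch 2 and Slc15a3 1.09 within batch 1 and 0.27 within batch 2, and the median of the myeloid list was 0.36 within batch 1 and −0.29 within batch 2. A second probe set for Slc40a1 above the level rule differed by −0.51 between groups, against 0.24 at the brightest.

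**Figure D4:**
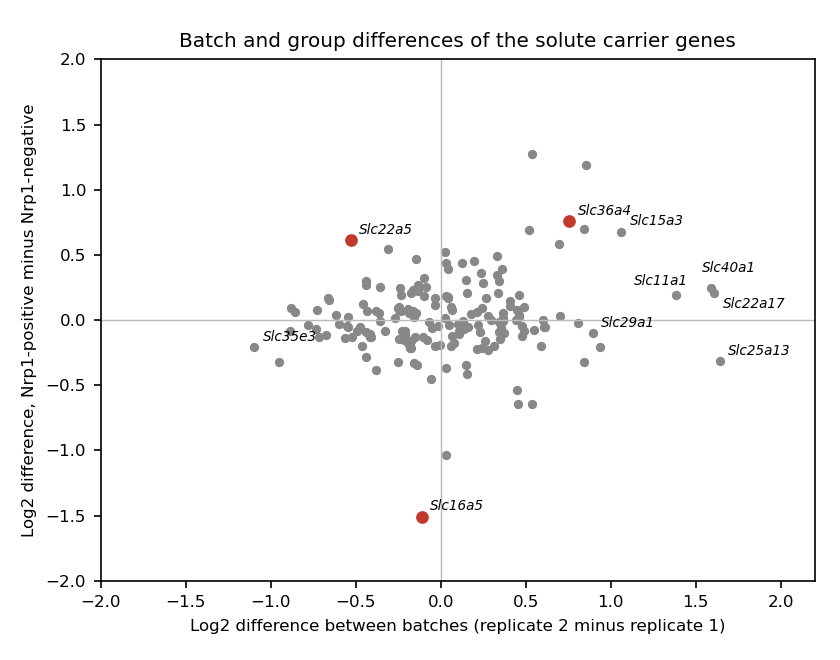
Difference between batches (x axis, replicate 2 minus replicate 1, log2, mean of both groups) against the difference between groups (y axis, Nrp1-positive minus Nrp1-negative, log2) for the 175 genes; red points had an adjusted p below 0.05 in limma's test with the block. Slc25a13, Slc22a17, Slc40a1 and Slc11a1 stand to the right, at 1.38 or more between batches, and Slc16a5 stands at −0.11 between batches and −1.51 between groups.

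The ATP-binding cassette transporters, the other large superfamily of membrane transporters, were taken for comparison. Of 45 such genes on the array, 26 met the same level rule, and 0 of the 26 passed with the block in either direction. Their median difference was 0.015 and their median size of difference 0.16, beside 0.14 for the solute carriers and 0.12 for all genes tested.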

How the data were processed

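RNA extracted with Trizol was labelled with biotin and hybridised to 4 one-colour Affymetrix arrays, per the labels' protocols. The deposited values are probe set intensities on a linear scale, made by the authors with MAS5, per the submitters' processing notes; its version is not stated in them. The labels give no depth or signal over background, and the number of arrays limits the precision. Arrays were grouped by title.

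Arrays were scaled to one mean after trimming 2% at each end, quantile normalised and analysed as log2(intensity + 18.3), the constant being 0.25 of the mean array median. Of 45101 probe sets, 64 were controls, 34945 had 1 gene, 932 several and 9160 none named here, and 0 symbols changed through the RefSeq gene table (GRCm38.p6). Each gene was represented by its brightest probe set, kept at or above percentile 50 of the scaled mean. Groups were compared across all 10204 genes with limma 3.58.1 in R 4.3.3 (eBayes with a mean-variance trend, two-sided, Benjamini-Hochberg), without a block as the main test and with the replicate number as a block. With the block, 1 residual degree of freedom joined 15.6 from the prior, so standard errors and intervals rest mostly on genes of similar intensity. The replicate numbers carry a batch: across genes, which are not independent, the shift from replicate 1 to 2 in one group correlated with that in the other at r = 0.73. The fit was tested on simulated data. Drawings used matplotlib 3.10.9.

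Named genes were the members called with the block, the 10 with the largest difference of one sign in both batches in each direction, a list of carriers known from T cells and the 5 with the widest gap between batches; Slc11a1, Slc15a3 and other genes named for their batch difference, Slc25a20, Slc36a1, Slc38a9, Slc39a1 and Slc39a9 were added after their values were seen. The members and lists were chosen with earlier results of these data known. Alternatives changed the block, trend, normalization, constant, filter, probe sets, arrays used and the conflicting label.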

Additional observations from a re-analysis of the deposited data

How the results depend on the processing

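With 2 arrays a group, no solute carrier call held over all settings. Limma called 0 of all 10204 genes without the block (140 with an unadjusted p below 0.05) and 0 with the replicate block but no mean-variance trend (830 with such a p); the calls below rest on the replicate block, which pairs the arrays by batch, and on that trend. The replicate block called 2 of these genes higher and 1 lower, and 99 and 58 of all genes. A constant of 1 with the replicate block gave 1 and 1 (all genes 76 and 46), and a doubled constant with it gave 3 and 1 (107 and 62). No level filter, also with the block, gave 4 and 1 (121 and 71). A filter at percentile 65 with the block gave 2 and 0 (90 and 52), but it left 130 solute carriers and removed Slc16a5 before the test. Averaged probe sets with the block gave 7 and 1 (178 and 91), and trimmed-mean scaling alone with the block gave 0 and 0 (36 and 24). Leaving out 1 array, without the block, gave a solute carrier median of −0.013 to 0.050. Of 48 named genes, 26 turned sign under at least 1 alternative. With the mean of probe sets and the replicate block, Slc11a2 was −0.46, Slc40a1 −0.13, Slc39a10 0.0097 and Slc20a1 0.056, and Slc43a2 was 0.0097 with trimmed-mean scaling alone and the replicate block. With the array titled Nrp1-negative replicate 1 counted as Nrp1-positive, the differences were −0.26 for Slc36a4, −0.23 for Slc22a2, −0.53 for Slc15a3, −0.23 for Slc9a7, 0.33 for Slc2a1, −0.51 for Slc1a5, −0.26 for Slc38a1, 0.082 for Slc38a2, 0.18 for Slc43a2, −0.20 for Slc25a3, −0.71 for Slc11a2, −1.24 for Slc40a1, 0.13 for Slc20a1, 0.29 for Slc12a7, −0.044 for Slc19a1, −0.61 for Slc9b2 and −0.40 for Slc4a11. Over the fits that left out 1 array, the range was −0.055 to 1.41 for Slc15a3, −0.32 to 0.22 for Slc2a1, −0.060 to 0.10 for Slc3a2, −0.15 to 0.031 for Slc7a5, −0.37 to 0.43 for Slc1a5, −0.16 to 0.31 for Slc38a1, −0.19 to 0.026 for Slc38a2, −0.22 to 0.22 for Slc43a2, −0.50 to 0.066 for Slc16a1, −0.19 to 0.22 for Slc25a3, −0.36 to 0.19 for Slc25a4, −0.36 to 0.21 for Slc25a5, −0.69 to 0.48 for Slc29a1, −0.48 to 0.70 for Slc11a2, −0.81 to 1.30 for Slc40a1, −0.35 to 0.019 for Slc20a1, −0.38 to 0.16 for Slc12a7, −0.62 to 0.93 for Slc35e4, −0.11 to 1.51 for Slc9b2, −0.49 to 0.82 for Slc38a3 and −0.13 to 0.82 for Slc4a11. Over those fits Slc16a5 ranged from −1.60 to −1.41, Slc22a5 from 0.25 to 0.98 and Slc36a4 from 0.19 to 1.34. The fits with 1 array left out or with the label turned had no block, so part of the batch difference enters their values. Other causes of these shifts were not tested.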
